A study of Homo sapiens with 8 samples.

Results

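The departure of the response to decitabine and RG3039 together from the sum of the responses to each drug alone was measured gene by gene in HL-60 cells, an established line from a human promyelocytic leukaemia, of wild-type genotype per the labels. All 8 libraries entered as a 2 by 2 design with 2 libraries in each of 4 groups. One group received the solvent DMSO, 1 received decitabine at 100 nM on each of days 0, 1 and 2, 1 received RG3039 at 2 µM on day 0, and 1 received both drugs (the combination). RNA was taken at 72 hours and sequenced from the 3′ ends of polyadenylated transcripts. For each gene, log2(normalised value + 1) was averaged within a group, and the departure was (combination minus decitabine) minus (RG3039 minus DMSO). Of 60240 genes in the deposited table, the 17534 with a mean normalised value of 10 or more over the 8 libraries were kept, and no measured difference between groups entered that choice. The mean was 10.002 for the kept gene nearest to that limit and 9.997 for the nearest gene left out. The libraries come from duplicate wells of 1 cell line, so the errors and p-values below cover the spread between these wells.

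Decitabine, an analogue of deoxycytidine, enters newly made DNA, where it traps DNA methyltransferases and so leads to loss of cytosine methylation as cells divide. RG3039 inhibits DcpS, the scavenger enzyme that hydrolyses the cap left when mRNA is degraded from its 3′ end. On the log2 scale a departure of 0 means that the fold responses multiply. A negative departure means that the level with both drugs was lower than the product of the single fold responses gives, and a positive one that it was higher. A gene that rises with each drug can therefore have a negative departure and still be highest in the combination.

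The 8 libraries were comparable in size, with totals of 27878600 to 32309900 normalised units and estimated depths of 20700000 to 40900000 reads. Correlations between the log2 values of the 2 libraries of a group were 0.952 to 0.957. The promyelocyte markers MPO, ELANE, AZU1, PRTN3, CTSG, CD33, KIT and MYB were present in every library.

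No gene passed for a departure in either direction. By limma, 0 of 17534 genes lay above the sum and 0 below it at an adjusted p under 0.05 (percent called 0 in both directions), and the smallest adjusted p was 0.124. At an unadjusted p under 0.05 there were 482 genes above the sum (2.75%) and 532 below it (3.03%), at one under 0.01 there were 110 (0.627%) and 87 (0.496%), and at one under 0.001 there were 16 (0.0913%) and 13 (0.0741%). The same libraries and the same fit called 305 genes higher (1.74%) and 71 lower (0.405%) with decitabine against DMSO, 794 higher (4.53%) and 630 lower (3.59%) with RG3039, and 1999 higher (11.4%) and 2222 lower (12.7%) with the combination. In the combination, 691 genes were higher than with decitabine alone (3.94%) and 595 lower (3.39%). Against RG3039 alone, 261 were higher (1.49%) and 138 lower (0.787%). These comparisons share libraries with one another and with the departure. The median departure over all tested genes was -0.01, and 50.9% of genes lay below 0.

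Missing the threshold does not show that a gene was additive, and the intervals say how large a departure the data leave. The standard error of the departure had a median of 0.456, and the 95% interval reached a median of 1.02 to either side on the log2 scale, a 2.03-fold difference. For 5537 genes (31.6%) the whole interval lay within 1 log2 unit of 0, which is within a doubling or halving of the additive level. Precision followed the level of the gene. Such an interval was found for 0% of the 6601 genes with a mean value of 10 to 100, for 32.7% of the 6648 genes from 100 to 1000, and for 78.6% of the 4285 genes at 1000 or more. Among the 4221 genes called in the combination against DMSO it was found for 1945 (46.1%).

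The departure was also computed separately in the 4 libraries labelled replicate 1 and in the 4 labelled replicate 2, which have no library in common. Across all 17534 genes the departures of these replicate sets had a Pearson r of 0.019, and across the genes with a mean value of 1000 or more an r of 0.084. For the response against DMSO, measured in the same sets, r was 0.316 with decitabine, 0.392 with RG3039 and 0.631 under both drugs. These are correlations across genes, which are not independent replicates, and are given as a description. Among the genes with a mean value of 1000 or more, the 100 with the most positive departure in set 1 had a median of 1.09 there and 0.27 in set 2, and the 100 with the most negative had -1.52 there and -0.11 in set 2. Departures were below 0 in both sets for 25% of genes and above 0 in both for 24.5%.

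**Figure D1:**
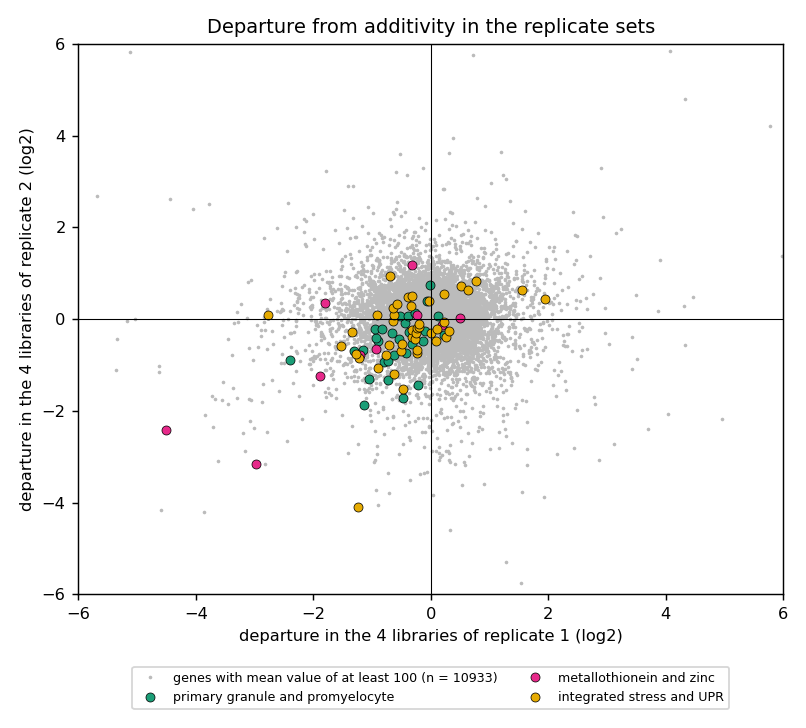
Departure from additivity (log2) in the 4 libraries of replicate 1 (x axis) against the 4 libraries of replicate 2 (y axis), 1 point per gene, for the 10933 genes with a mean value of 100 or more (grey, 26 genes beyond the axes of -6 to 6) and for the members of 3 gene lists (coloured). The grey cloud has no slope to the eye (r 0.029). MT1H lies far below 0 on both axes, which its choice by the smallest p in these same libraries favours. Of the 30 genes of the primary granule and promyelocyte list, 23 lie in the lower left quadrant. MT1M also lies far below 0 on both axes, but it was near 0 with DMSO and its position rests on the pseudocount.

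The genes with the smallest p above the sum were ZNF641, GP1BB, JAML, ZNF704, XYLT2 and C18orf32. None of them passed, and their adjusted p lay between 0.183 and 0.505 (limma, Benjamini-Hochberg). ZNF641, a zinc finger gene, stood at 188 and 333 normalised units with DMSO, 49.2 and 107 under decitabine, 109 and 78.3 under RG3039, and 589 and 719 under both drugs. Both combination libraries lay above the other 6, while the libraries of both single drugs lay below those of DMSO. Its departure was 4.57 ± 0.59 (SE, 95% interval 3.25 to 5.89), and it was 4.33 and 4.81 in the replicate sets. Choosing genes by a small p favours sets that lie close, so their closeness is no separate support. The rise in the combination against DMSO was 1.38 on the log2 scale and passed, whereas the falls with the single drugs (-1.77 and -1.43) did not.

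JAML, which encodes a junctional adhesion molecule of leukocytes, was at 243 and 263 in DMSO, 260 and 195 under decitabine, 377 and 374 under RG3039 and 1177 and 1089 under both drugs. XYLT2, which encodes a xylosyltransferase that starts proteoglycan chains, was at 118 and 106, 178 and 150, 103 and 164, and 874 and 819 in the same order. In both genes the combination libraries were well apart from the other 6, which overlapped between groups for XYLT2. The departure was 1.76 ± 0.30 for JAML and 2.15 ± 0.40 for XYLT2 (SE), and neither gene passed for either drug alone. Each was higher in the combination than with either single drug, and both of those differences passed.

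ZNF704 reached its departure by another arrangement. It was at 434 and 403 in DMSO, 158 and 214 under decitabine, 426 and 444 under RG3039 and 675 and 589 under both drugs, so that decitabine alone stood low. The fall with decitabine (-1.18) passed, and the departure was 1.72 ± 0.31 (SE). C18orf32 was at 1277 and 1368 in DMSO, 924 and 943 under decitabine, 1116 and 1217 under RG3039 and 1713 and 1947 under both drugs, with a departure of 1.15 ± 0.22 (SE). GP1BB, a subunit of the platelet receptor for von Willebrand factor, was at 273 and 27.2 in DMSO, 639 and 533 under decitabine, and 1013 and 665 under both drugs, and was listed at 0 in both RG3039 libraries. Its DMSO libraries were far apart, and a value listed at 0 makes its departure depend on the pseudocount, so none is given.

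**Figure D2:**
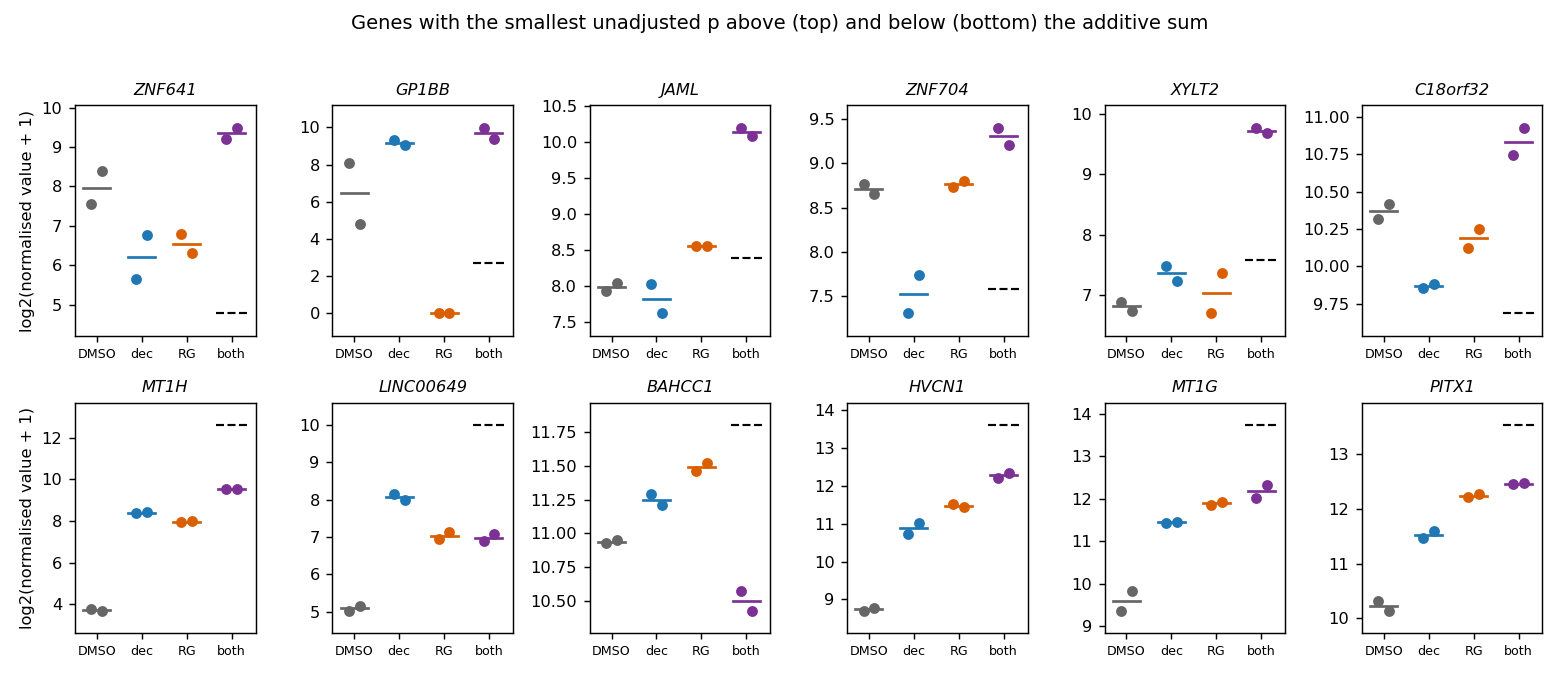
Log2(normalised value + 1) of the 6 genes with the smallest unadjusted p above the additive sum (top) and below it (bottom); points are libraries, coloured bars are group means, and the dashed line is the additive sum of the single-drug responses placed on the DMSO level. The axes do not start at 0 and differ between panels. Both combination libraries lie above the dashed line in the top row and below it in the bottom row, by 4.57 for ZNF641 and by 3.07 for MT1H. The genes were chosen by this departure and its sign, so the side of the line follows from the choice.

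Below the sum the smallest p belonged to MT1H, LINC00649, BAHCC1, HVCN1, MT1G and PITX1, with adjusted p between 0.124 and 0.505 (limma, Benjamini-Hochberg). In 5 of these 6, each single drug had raised the gene and the rise passed. Over all genes, 1.74% rose with decitabine and 4.53% with RG3039. The DMSO libraries enter those rises and the departure, so a low DMSO level favours both, and the count is no separate result. LINC00649, a long non-coding RNA annotated as antisense on chr21:33915534-33977691 (hg38), whose reads cannot be told apart from those of an overlapping gene where strand was not used, was at 31.6 and 34.7 in DMSO, 282 and 252 under decitabine, 122 and 138 under RG3039 and 118 and 134 under both drugs. Its combination libraries overlapped those of RG3039 alone and lay below those of decitabine alone, and the departure was -3.02 ± 0.42 (SE).

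HVCN1, the voltage-gated proton channel of phagocytes, was at 416 and 434 in DMSO, 1693 and 2076 under decitabine, 2917 and 2764 under RG3039 and 4769 and 5187 under both drugs. The 4 groups did not overlap and the combination was highest, and still the rise of 3.55 was less than the sum of the single rises (4.88), with a departure of -1.33 ± 0.22 (SE). PITX1, a homeobox transcription factor, was at 1279 and 1130, 2818 and 3082, 4740 and 4924, and 5582 and 5675 in the same order, with a departure of -1.07 ± 0.19 (SE).

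BAHCC1, which encodes a chromatin reader protein, had another arrangement. It was at 1946 and 1976 in DMSO, 2503 and 2364 under decitabine, 2823 and 2935 under RG3039 and 1524 and 1377 under both drugs. RG3039 raised it (0.55) and the combination lowered it (-0.44), and both changes passed. Its departure was -1.30 ± 0.20 (SE, 95% interval -1.74 to -0.86).

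The sign of a departure depends on the scale. As a difference of group means of the normalised values, in place of their logarithms, the departure was above 0 for 1374 genes (7.84%) whose log2 departure was below 0. Among the 70 named genes, 12 had the other sign on that linear scale. HVCN1 was 678 units above the linear sum, MT1H 169 units and MMP9 753 units, whereas BAHCC1 was 1902 units and PITX1 949 units below it.

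Metallothioneins are small cysteine-rich proteins that bind zinc and copper, and their genes lie in a cluster on chromosome 16. Their transcription is driven by MTF1, a zinc-sensing factor that binds metal response elements in their promoters, and several of them are known to be silenced by DNA methylation in tumours. Of 14 genes in the metallothionein and zinc list, 10 were tested. The genes are near-identical copies, so reads could be shared between them and the level of a single member is uncertain.

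The metal response element is the known control sequence of this family, so the 250 bases before the RefSeq start sites of MT1H and MT2A, 2 members below the sum, and of MT1X, a member close to it, are shown from the table on GRCh38.p14. That table held these 3 of the 7 tested metallothioneins. Capitals mark matches to the core of the metal response element, searched as TGCACNC and TGCGCNC on both strands, with overlapping matches counted separately.
MT1H (chr16:56669564-56669813, + strand): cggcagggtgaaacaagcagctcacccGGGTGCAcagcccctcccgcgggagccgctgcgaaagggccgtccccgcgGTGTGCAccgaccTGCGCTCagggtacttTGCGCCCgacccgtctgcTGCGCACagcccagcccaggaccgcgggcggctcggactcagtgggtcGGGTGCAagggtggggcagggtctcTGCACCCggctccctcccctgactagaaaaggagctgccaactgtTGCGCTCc
MT2A (chr16:56608334-56608583, + strand): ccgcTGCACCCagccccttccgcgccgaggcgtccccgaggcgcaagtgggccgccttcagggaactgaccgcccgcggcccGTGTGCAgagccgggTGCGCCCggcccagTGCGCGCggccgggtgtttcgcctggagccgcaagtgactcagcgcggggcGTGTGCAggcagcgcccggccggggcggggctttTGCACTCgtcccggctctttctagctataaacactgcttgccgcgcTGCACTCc
MT1X (chr16:56682220-56682469, + strand): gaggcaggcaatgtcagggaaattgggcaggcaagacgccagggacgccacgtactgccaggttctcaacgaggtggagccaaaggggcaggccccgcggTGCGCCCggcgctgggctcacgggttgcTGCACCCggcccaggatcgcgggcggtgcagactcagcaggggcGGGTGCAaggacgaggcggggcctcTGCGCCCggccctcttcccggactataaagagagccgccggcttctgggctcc

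The MT1H window held 8 matches and 22 CG dinucleotides, the MT2A window 7 matches and 32 CG, and the MT1X window 4 matches and 22 CG. Of the 35116 promoter windows of this length in the table, 24.8% held at least 1 match, 0.37% at least 4 and 0.017% at least 8, and the median CG count was 11. A match is a string of letters and not a bound site.

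MT1H (chr16:56669814-56671129, + strand) was the gene with the smallest p for a departure. It was at 12.9 and 12.1 in DMSO, 328 and 342 under decitabine, 245 and 253 under RG3039 and 736 and 746 under both drugs. The groups did not overlap, and the 2 libraries of each group were close to each other. With DMSO the values rest on few reads, as 1 read was 0.757 units in replicate 1 and 1.51 in replicate 2. Their closeness may therefore understate the spread. Decitabine raised MT1H by 4.64 and RG3039 by 4.21 on the log2 scale, which sum to 8.85, and the combination raised it by 5.78. All 3 rises passed. The departure was -3.07 ± 0.35 (SE, 95% interval -3.85 to -2.29), with -2.98 and -3.16 in the replicate sets. As the gene was named for its small p, the closeness of these sets is no separate support.

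MT1G, the next metallothionein by p (chr16:56666731-56668065, - strand), was at 659 and 907 in DMSO, 2764 and 2820 under decitabine, 3696 and 3910 under RG3039 and 4177 and 5174 under both drugs. The combination was higher than with decitabine alone (0.74, passed), and its difference from RG3039 alone (0.29) did not pass. The departure was -1.56 ± 0.26 (SE).

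MT2A, the most abundant of them, was at 4402 and 5898 in DMSO, 15059 and 16477 under decitabine, 16438 and 17913 under RG3039 and 24247 and 29226 under both drugs, and its departure was -0.99 ± 0.24 (SE). MT1F was at 307 and 286, 696 and 647, 1053 and 1118, and 1246 and 1616 in the same order, with -0.79 ± 0.26 (SE). MT1M was near 0 with DMSO (listed at 0 and 1.51) and reached 47.2 and 36.4 under decitabine, 52.4 and 66.1 under RG3039 and 112 and 186 under both drugs. In these 3 genes too, both combination libraries were the highest of the 8.

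MT1X had a different pattern from MT1H. It was at 880 and 889 in DMSO, 1374 and 1404 under decitabine, 2326 and 2534 under RG3039 and 3084 and 4247 under both drugs, and its departure was -0.07 with a 95% interval of -0.63 to 0.48. MTF1 itself was at 1286 and 1060, 1196 and 1258, 2757 and 2940, and 2940 and 3216, so that it was high wherever RG3039 was present, with a departure of 0.04 (-0.45 to 0.53). The zinc transporters SLC39A10 and SLC30A1 had departures of 0.26 and 0.44, and MT1E of -0.72 with sets on either side of 0 (-1.79 and 0.35).

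Over the 10 members, 5 rose and 0 fell with decitabine, 7 rose and 0 fell with RG3039, and 8 rose and 0 fell with the combination, beside 1.74%, 4.53% and 11.4% of all genes that rose. Their median departure was -0.76, beside -0.01 over all tested genes, and it was -1.08 and -0.38 in the replicate sets. At an unadjusted p under 0.05, 5 of the 10 lay below the sum (MT1M, MT1H, MT1G, MT2A and MT1F) beside 3.03% of all genes, and 0 above it. MT1M passed the filter only through the treated groups and its departure rests on the pseudocount, so it does not bear on the direction of the others. On the linear scale 4 members lay below the sum (MT1G, MT2A, MT1F and MT1E) and 6 above it. MT1H, MT1M and MT1X lay below the sum on the log2 scale and above it on the linear scale, so for them the sign depends on the scale. The DMSO libraries enter both single responses and the departure, so these values share their error.

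Primary (azurophil) granules are the first granules that developing neutrophils make, at the promyelocyte stage at which HL-60 cells are arrested, and they carry MPO, the neutrophil serine proteases and the defensins. Eosinophil granule proteins are also made by HL-60 cells. The primary granule and promyelocyte list also holds genes outside the azurophil granule, such as CALR and the eosinophil gene PRG2. All 30 of its genes were tested. The departure was below 0 for 27 of them and below 0 in both replicate sets for 23 (beside 25% of all genes), and the list's median was -0.55, with -0.53 and -0.46 in the replicate sets. At an unadjusted p under 0.05, 14 members lay below the sum (46.7%, beside 3.03% of all genes) and 0 above it, and 0 passed after adjustment. On the linear scale 27 of 30 were also below. The count of 14 was 6 without combination replicate 1, 8 without DMSO replicate 1, 9 without decitabine replicate 2 and 7 when eBayes was run without the mean-variance trend, while the median stayed between -0.69 and -0.43 without any 1 library. Beside these counts, decitabine alone raised 11 members and lowered 0, RG3039 raised 7 and lowered 6, and the combination raised 10 and lowered 6. Over all genes these shares were 1.74% and 0.405%, 4.53% and 3.59%, and 11.4% and 12.7%.

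Among the proteases, PRSS57 and CTSG rose with decitabine alone, and neither rose in the combination. PRSS57, a serine protease of the azurophil granule, was at 302 and 306 in DMSO, 1231 and 1383 under decitabine, 184 and 132 under RG3039 and 342 and 162 under both drugs. Only the decitabine libraries stood apart. The rise with decitabine (2.10) passed, as did the lower level of the combination than decitabine alone (-2.46), and the departure was -1.51 ± 0.47 (SE, 95% interval -2.57 to -0.44).

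CTSG, cathepsin G, was at 4468 and 3016 in DMSO, 6653 and 8546 under decitabine, 999 and 1203 under RG3039 and 1285 and 1260 under both drugs. It rose with decitabine (1.04) and fell with RG3039 (-1.74) and with the combination (-1.53), so that the combination sat at the level of RG3039 alone. Its departure was -0.82 ± 0.30 (SE), unequal between the replicate sets (-0.21 and -1.44). PRTN3, proteinase 3, was at 8114 and 10059, 11813 and 13055, 5610 and 5956, and 4399 and 5553 in the same order, with -0.68 ± 0.23 (SE). ELANE, neutrophil elastase, was lower in both combination libraries (7727 and 10822) than in the other 6 (12161 to 15095), with -0.67 ± 0.24 (SE), and its responses to the single drugs (0.04 and 0.15) did not pass.

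HGF, hepatocyte growth factor, which promyelocytic leukaemia cells are known to make, was at 361 and 366 in DMSO, 1165 and 1404 under decitabine, 204 and 266 under RG3039 and 398 and 408 under both drugs. It had the arrangement of PRSS57, with decitabine alone apart from the rest, and its departure was -1.03 ± 0.30 (SE). CALR, calreticulin, a chaperone of the endoplasmic reticulum needed to fold MPO, was at 44067 and 32742 in DMSO, 58227 and 58473 under decitabine, 31363 and 26159 under RG3039 and 20025 and 19037 under both drugs. Its fall with the combination (-0.96) passed, and its departure of -1.17 ± 0.23 (SE, 95% interval -1.69 to -0.65) had the smallest p of the list.

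The eosinophil granule genes PRG2, CLC and EPX rose with decitabine and with the combination. PRG3, a homologue of PRG2 on the same list, was low, at 4.54 and 6.04 in DMSO, 31 and 75.9 under decitabine, 4.03 and 7.96 under RG3039 and 20 and 28.8 under both drugs, and passed for neither. PRG2, the major basic protein, was at 20683 and 23688 in DMSO, 63797 and 77821 under decitabine, 36782 and 38882 under RG3039 and 65472 and 67395 under both drugs. Each drug raised it (1.67 and 0.77), yet the combination (1.59) was at the level of decitabine alone, and the departure was -0.86 ± 0.20 (SE, 95% interval -1.31 to -0.41). CLC, the Charcot-Leyden crystal protein, was at 418 and 423, 1443 and 1542, 638 and 505, and 890 and 1146 in the same order, with -0.99 ± 0.28 (SE). EPX, eosinophil peroxidase, had a departure of -0.92 ± 0.37 (SE). The eosinophil ribonucleases, which rose with each drug and with both, were closer to the sum: RNASE3 had -0.58 and RNASE2 -0.16, with a 95% interval of -0.95 to 0.64.

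Some other members of the list had estimates nearer to the sum, with intervals that include 0, which does not show them to be additive. MPO, the most abundant of them, was at 131000 and 165580 in DMSO, 121480 and 158080 under decitabine, 80167 and 92757 under RG3039 and 69218 and 74639 under both drugs, and its departure was -0.17 (95% interval -0.74 to 0.39). LYZ, lysozyme, had -0.06 (-0.47 to 0.35), and CST7, a cysteine protease inhibitor, had 0.10 (-0.50 to 0.70). The defensins DEFA1 and DEFA3, nearly identical copies whose reads could be shared, had 0.17 (-0.35 to 0.68) and 0.37 (-0.32 to 1.07). Another defensin of the list, DEFA4, differed from them. Its departure was -0.82 with an interval below 0 (-1.43 to -0.20), and it did not pass after adjustment. Against decitabine alone, the combination was lower for 11 of the 30 genes (beside 3.39% of all genes) and higher for 2, RNASE2 and RNASE3 (beside 3.94%). Against RG3039 alone it was higher for 4 and lower for 0 (beside 1.49% and 0.787% of all genes).

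**Figure D3:**
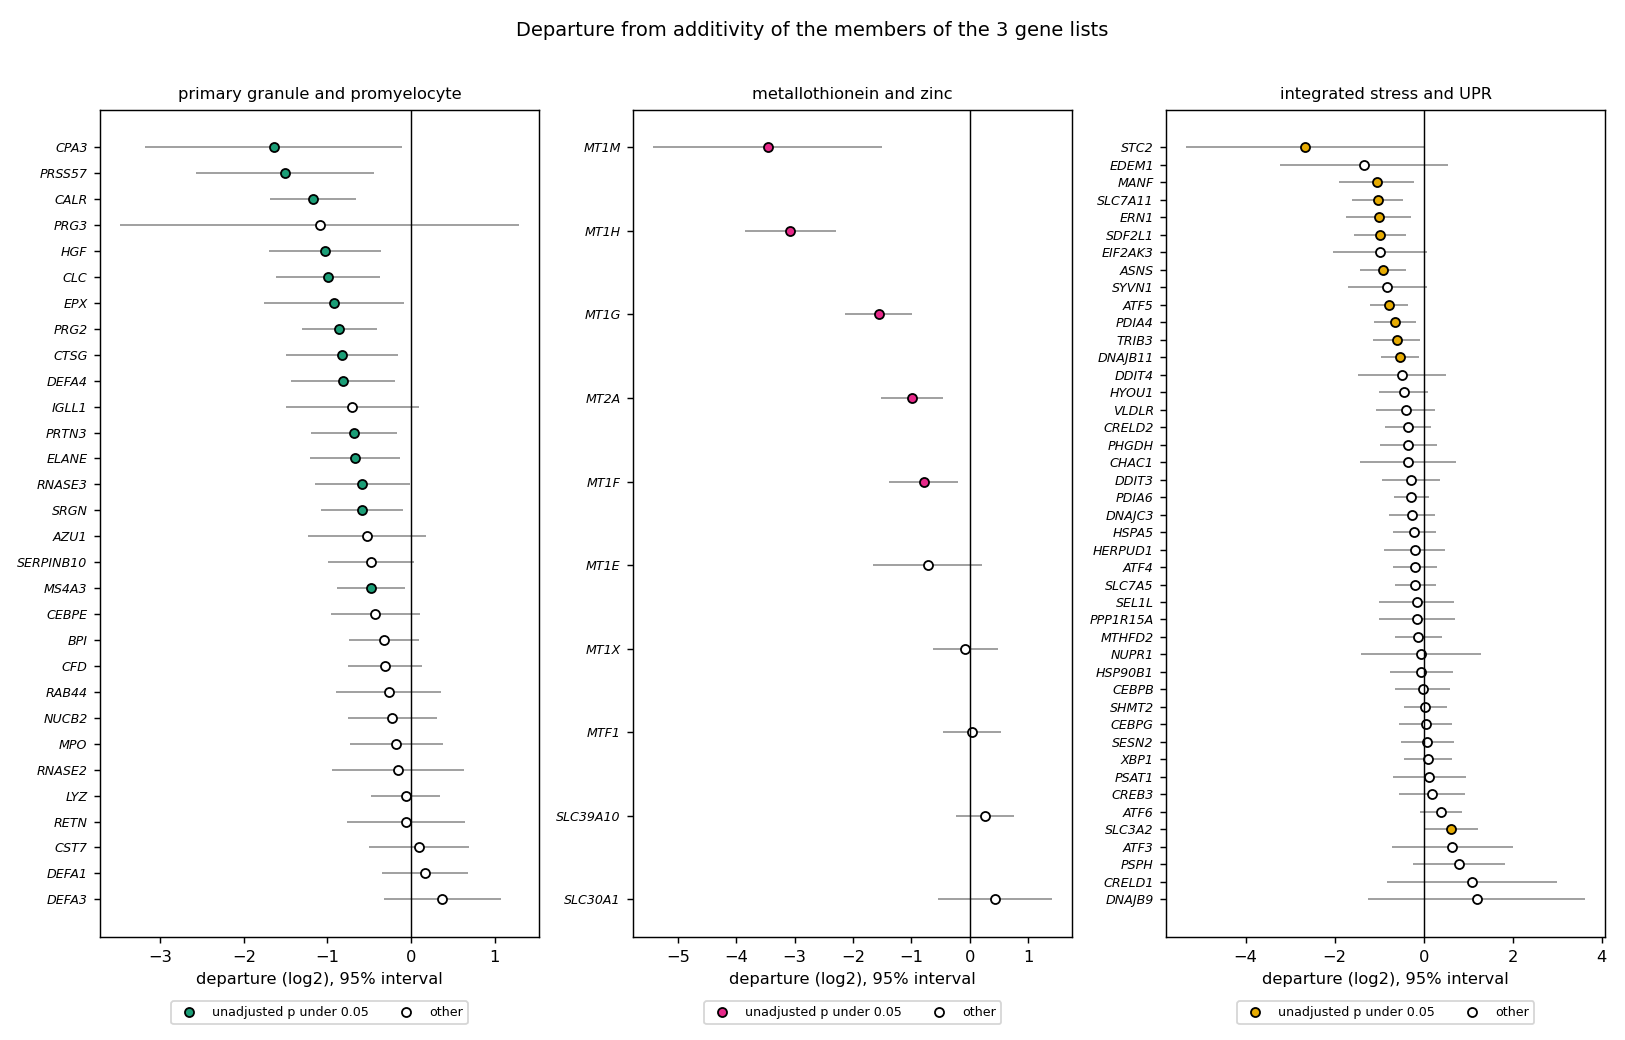
Departure from additivity (log2, points) with its 95% interval (bars) for the tested members of 3 gene lists, ordered within a list; filled points have an unadjusted p under 0.05 and none passed after adjustment. In the primary granule and promyelocyte list 27 of 30 points lie left of 0, in the metallothionein and zinc list 7 of 10, and in the integrated stress and unfolded protein response (UPR) list 32 of 44.

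The integrated stress response slows translation and switches on ATF4 target genes, among them amino acid synthesis and transport genes, and the unfolded protein response raises chaperones of the endoplasmic reticulum. All 44 genes of this list were tested. The median departure was -0.24 (-0.33 and -0.22 in the replicate sets), 32 members were below 0 (beside 50.9% of all genes), and 23 were below 0 in both sets (beside 25%). At an unadjusted p under 0.05, 10 lay below the sum (22.7%, beside 3.03% of all genes) and 1 above it, the amino acid transporter subunit SLC3A2 (0.61), and 0 passed after adjustment. The count of 10 was 5 without RG3039 replicate 1. Decitabine raised 2 members and lowered 0 (beside 1.74% and 0.405% of all genes), RG3039 raised 8 and lowered 2 (beside 4.53% and 3.59%), and the combination raised 11 and lowered 6 (beside 11.4% and 12.7%).

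In ASNS, SLC7A11 and TRIB3, which are targets of ATF4, both combination libraries lay below both RG3039 libraries, by differences that did not pass (-0.31, -0.31 and -0.39). CHAC1 and DDIT3 of the same list had the reverse, also without passing. CHAC1 was at 144 and 197 under both drugs beside 129 and 116 under RG3039, and DDIT3 at 442 and 484 beside 433 and 372. ASNS, asparagine synthetase, was at 1395 and 1101 in DMSO, 1787 and 1956 under decitabine, 2500 and 2770 under RG3039 and 2077 and 2159 under both drugs, so the combination lay between the single drugs. Its departure was -0.91 ± 0.23 (SE, 95% interval -1.42 to -0.39). SLC7A11, the cystine transporter, had the same order, with 671 and 651, 1232 and 975, 1882 and 1601, and 1473 and 1334, and a departure of -1.04 ± 0.25 (SE). TRIB3, a pseudokinase that feeds back on ATF4, was at 602 and 515, 642 and 652, 1234 and 1221, and 920 and 955, with -0.60 ± 0.24 (SE).

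ATF5, a transcription factor of the same response, rose with each drug, from 2590 and 2391 in DMSO to 4341 and 4626 under decitabine, 4931 and 5024 under RG3039 and 4876 and 5626 under both drugs. Its departure was -0.77 ± 0.19 (SE), with -0.76 and -0.79 in the replicate sets. ATF4 itself had -0.20 (95% interval -0.69 to 0.30) and DDIT3, which encodes CHOP, -0.28 (-0.93 to 0.37).

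Of the endoplasmic reticulum genes, SDF2L1, a chaperone cofactor, was at 2834 and 2113 in DMSO, 3432 and 4317 under decitabine, 2952 and 3340 under RG3039 and 2585 and 2393 under both drugs, with a departure of -0.99 ± 0.26 (SE). PDIA4, a protein disulphide isomerase, was higher in both decitabine libraries (2695 and 2578) than in the other 6 (1295 to 1856), with -0.64 ± 0.21 (SE). HSPA5, the main chaperone of the compartment, was at 18652 to 27289 in all 8 libraries and had a departure of -0.21 (95% interval -0.70 to 0.27). XBP1 fell with RG3039 (-1.22) and with the combination (-1.39), and its departure was 0.10 (-0.45 to 0.64).

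For receptors and other surface proteins the estimates lay above 0 for 23 genes and below 0 for 10. Of 37 genes in the growth factor receptor and surface list, 33 were tested, and their median departure was 0.32, with 0.30 and 0.31 in the replicate sets. At an unadjusted p under 0.05, 6 lay above the sum (beside 2.75% of all genes) and 3 below it (beside 3.03%), and 0 passed after adjustment. The median was 0.17 without DMSO replicate 2, 0.18 without decitabine replicate 1 and 0.20 after quantile normalization. ITGB7, the integrin beta 7 chain, was at 293 and 346 in DMSO, 313 and 409 under decitabine, 527 and 499 under RG3039 and 1168 and 1259 under both drugs. The combination rose against DMSO (1.92) and against each single drug, while neither drug alone passed, and the departure was 1.07 ± 0.29 (SE). CCR1, a chemokine receptor, went from 605 and 645 in DMSO to 945 and 1051 under decitabine, 980 and 971 under RG3039 and 2718 and 2654 under both drugs, with 0.79 ± 0.22 (SE).

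CSF1R, the receptor for macrophage colony-stimulating factor, was at 19.7 and 30.2 in DMSO, 52.6 and 59.2 under decitabine, 10.7 and 27.9 under RG3039 and 141 and 202 under both drugs. Both combination libraries were the highest, and the departure was 2.04 ± 0.75 (SE). The chemokine receptor CCR2 reached a positive departure (1.18 ± 0.33, SE) from falling levels. It was at 457 and 451 in DMSO, 134 and 146 under decitabine, 209 and 216 under RG3039 and 142 and 156 under both drugs, so that the combination did not go below decitabine alone. IL6ST, the signalling subunit gp130, was low with RG3039 alone (45.8 and 60.8) and between 90.1 and 186 in the other 6 libraries. CD38, an ectoenzyme, was at 283 and 223 in DMSO and between 473 and 613 in the 6 treated libraries, and its departure was -1.10 ± 0.30 (SE). CD52, a small glycoprotein of leukocytes, rose from 173 and 112 in DMSO to 787 and 939 under decitabine, 980 and 1168 under RG3039 and 5279 and 6572 under both drugs, close to the product of the single folds (departure -0.16, 95% interval -0.91 to 0.59).

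Of 65 maturation genes of monocytes and granulocytes 62 were tested, of which decitabine raised 8 and lowered 0, RG3039 raised 23 and lowered 3, and the combination raised 38 and lowered 2. The shares of all genes raised were 1.74%, 4.53% and 11.4%, and of those lowered 0.405%, 3.59% and 12.7%. Their median departure was 0.11. At an unadjusted p under 0.05, 5 of the 62 lay above the sum (beside 2.75% of all genes) and 1 below it (beside 3.03%), and 0 passed after adjustment. CD86, a costimulatory ligand, was at 127 and 270 in DMSO, 239 and 138 under decitabine, 101 and 99.4 under RG3039 and 438 and 643 under both drugs, with a departure of 2.42 ± 0.57 (SE). CD44, the hyaluronan receptor, was lowered by RG3039 alone (757 and 1019) and stood at 1501 to 2023 in the other 6 libraries, with 1.05 ± 0.27 (SE). CYBB, the catalytic subunit of the phagocyte NADPH oxidase, was the member below the sum. It went from 6174 and 5306 in DMSO to 10213 and 10521, 11760 and 11591, and 12879 and 14020, with -0.65 ± 0.18 (SE).

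The targets of the drugs and the genes that handle decitabine gave no departure that passed. DNMT1, the maintenance methyltransferase that decitabine traps, was at 13815 and 11548 in DMSO, 13058 and 9427 under decitabine, 9522 and 6550 under RG3039 and 4843 and 5966 under both drugs. The combination lay below the other 6 libraries and its fall (-1.23) passed, and the departure was -0.37 (95% interval -1.07 to 0.33), with sets of opposite sign (-0.89 and 0.16). UHRF1, which brings DNMT1 to hemimethylated DNA, had -0.21 (-0.76 to 0.34). DNMT3A and DNMT3B, the de novo methyltransferases, had 0.09 (-0.69 to 0.88) and 0.72 (-0.47 to 1.91).

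DCPS, the target of RG3039, was at 960 and 657 in DMSO, 1100 and 865 under decitabine, 966 and 660 under RG3039 and 543 and 416 under both drugs. Its combination libraries were the lowest of the 8, and its departure was -1.04 (95% interval -1.89 to -0.19, sets -1.03 and -1.06), with an unadjusted p of 0.0211 and an adjusted p of 0.854 by limma. CDA, which inactivates decitabine by deamination, rose from 379 and 471 in DMSO to 705 and 844 under decitabine, 2082 and 2353 under RG3039 and 3155 and 3828 under both drugs, and its departure was -0.22 (-0.81 to 0.38). DCK, the kinase that activates the drug, had -0.27 (-0.91 to 0.38), SLC29A1, a nucleoside transporter, 0.02 (-0.42 to 0.45), and SAMHD1, which hydrolyses deoxynucleotide triphosphates, 0.14 (-0.70 to 0.98).

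Genes chosen as leading responders to the single drugs were set against the sum in the same way. PNMA5, a paraneoplastic antigen gene that is nearly silent with DMSO (19.7 and 39.2), reached 7736 and 10197 under decitabine, stayed at 33.6 and 26.3 under RG3039 and reached 3079 and 3511 under both drugs. The combination was lower than decitabine alone by a difference that passed (-1.43), and the departure was -1.52 ± 0.45 (SE, 95% interval -2.53 to -0.52). TKTL1, a transketolase-like gene, reached 380 and 423 under decitabine and 90.7 and 73.7 under both drugs, and was listed at 0 or below 2 units in the DMSO and RG3039 libraries. MAGEB2, a cancer-testis gene, was at 62.8 and 51.3 in DMSO, 632 and 548 under decitabine, 22.8 and 35 under RG3039 and 275 and 326 under both drugs, and its departure was 0.01 ± 0.45 (SE).

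Among the genes raised by both drugs, MMP9, a gelatinase, went from 10.6 and 7.55 in DMSO to 76.9 and 102 under decitabine, 117 and 121 under RG3039 and 940 and 963 under both drugs. The combined rise of 6.58 was close to the sum of the single rises, 6.76, with a departure of -0.18 (95% interval -1.21 to 0.86). GBP2, an interferon-inducible GTPase, rose by 5.59 beside a sum of 5.86 (departure -0.27, -1.10 to 0.56). PPP1R1B, a phosphatase inhibitor known as DARPP-32, rose from 2.28 and 6.06 to 122 and 169 under decitabine, 233 and 210 under RG3039 and 953 and 913 under both drugs, and its departure was -2.84 ± 0.56 (SE). PPP1R1B was near the floor with DMSO and passed the filter only through the treated groups, so the size of its departure depends on the pseudocount. GATA2, a stem and progenitor transcription factor, was at 2611 and 2581 under decitabine and 2619 and 3096 under both drugs, with -0.64 ± 0.24 (SE).

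Among genes that RG3039 lowered, IGFBP7, a secreted growth factor binding protein, was at 2063 and 2788 in DMSO, 1457 and 942 under decitabine, 15.3 and 19.4 under RG3039 and 19.6 and 12.6 under both drugs, so that the libraries with RG3039 overlapped whether or not decitabine was present (departure 0.91, 95% interval -0.16 to 1.98). TFEC, a transcription factor of macrophages, was at 858 and 1367, 567 and 415, 4.81 and 18.8, and 35.4 and 22.4 in the same order, with 2.60 ± 0.77 (SE). BCL2, the anti-apoptotic gene, fell from 3825 and 3432 in DMSO to 1266 and 1344 under both drugs (-1.47) beside a sum of -1.33, and its departure was -0.14 (-0.58 to 0.29). EGR1 and S100A9 had -0.18 (-0.89 to 0.54) and 0.18 (-0.34 to 0.69).

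The remaining lists are given by their medians, beside -0.01 over all tested genes. In ribosome biogenesis, 37 of 46 tested genes fell with the combination, 4 with decitabine and 6 with RG3039, beside 12.7%, 0.405% and 3.59% of all genes. The median departure was -0.20, with 36 of 46 below 0, beside 50.9% of all genes. At an unadjusted p under 0.05, 2 of the 46 lay below the sum (beside 3.03% of all genes). On the linear scale 22 lay below the sum and 24 above it. NOP16, a factor of the large subunit, was at 2372 and 2218 in DMSO, 1888 and 1616 under decitabine, 1947 and 1736 under RG3039 and 657 and 767 under both drugs, with -0.98 ± 0.23 (SE). Its fall in the combination (-1.69) passed and the differences with the single drugs (-0.39 and -0.32) did not. The cytosolic ribosomal proteins lay slightly above the sum, with a median of 0.12 and 58 of 79 members above 0, while 50.9% of all genes were below 0. RPS2, whose pseudogene copies can share its reads, was at 141930 and 169300 in DMSO and between 80479 and 90023 in the 6 treated libraries, with a departure of 0.76 ± 0.20 (SE).

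In the cancer-testis and germline list, 29 of 63 genes were tested, and a member could pass the filter through a group in which it was high. Their median departure was -0.81, but it was -0.24 and -0.61 in the replicate sets, and 2 of the 29 lay below the sum at an unadjusted p under 0.05 (beside 3.03% of all genes), PNMA5 and TDRD9, a helicase of the germline piRNA pathway (at 2.14 and 1.22 in DMSO, 72.2 and 39.4 under decitabine, 100 and 88.5 under RG3039 and 149 and 227 under both drugs). The erythroid and megakaryocyte list had a median of -0.73 over 22 tested genes of 35, with 0.08 in replicate set 1 and -1.46 in set 2. DMSO replicate 2 was low for these genes, with HBG1 at 616 and 137, ANK1 at 250 and 43.7 and GYPB at 828 and 182 in the DMSO libraries, and the median of the list was -0.18 without that library, -1.48 without DMSO replicate 1 and -0.47 without combination replicate 2. HBG1 shares near-identical sequence with its neighbour HBG2, so its level is uncertain. For cholesterol and fatty acid synthesis the median was -0.27 (-0.01 and -0.25 in the sets), with 4 of 33 below the sum at an unadjusted p under 0.05, among them MVK (-0.84) and HMGCS1 (-0.62), enzymes of the mevalonate pathway. For DNA replication it was -0.15, with 5 of 53 below and 1 above at an unadjusted p under 0.05. Over all genes 3.03% lay below and 2.75% above at that p. The NF-kB and inflammatory cytokine genes, of which 21 of 34 rose with the combination (beside 11.4% of all genes), had a median of -0.06, and the interferon-stimulated genes 0.08. By limma 0 members of any list passed for a departure.

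**Figure D4:**
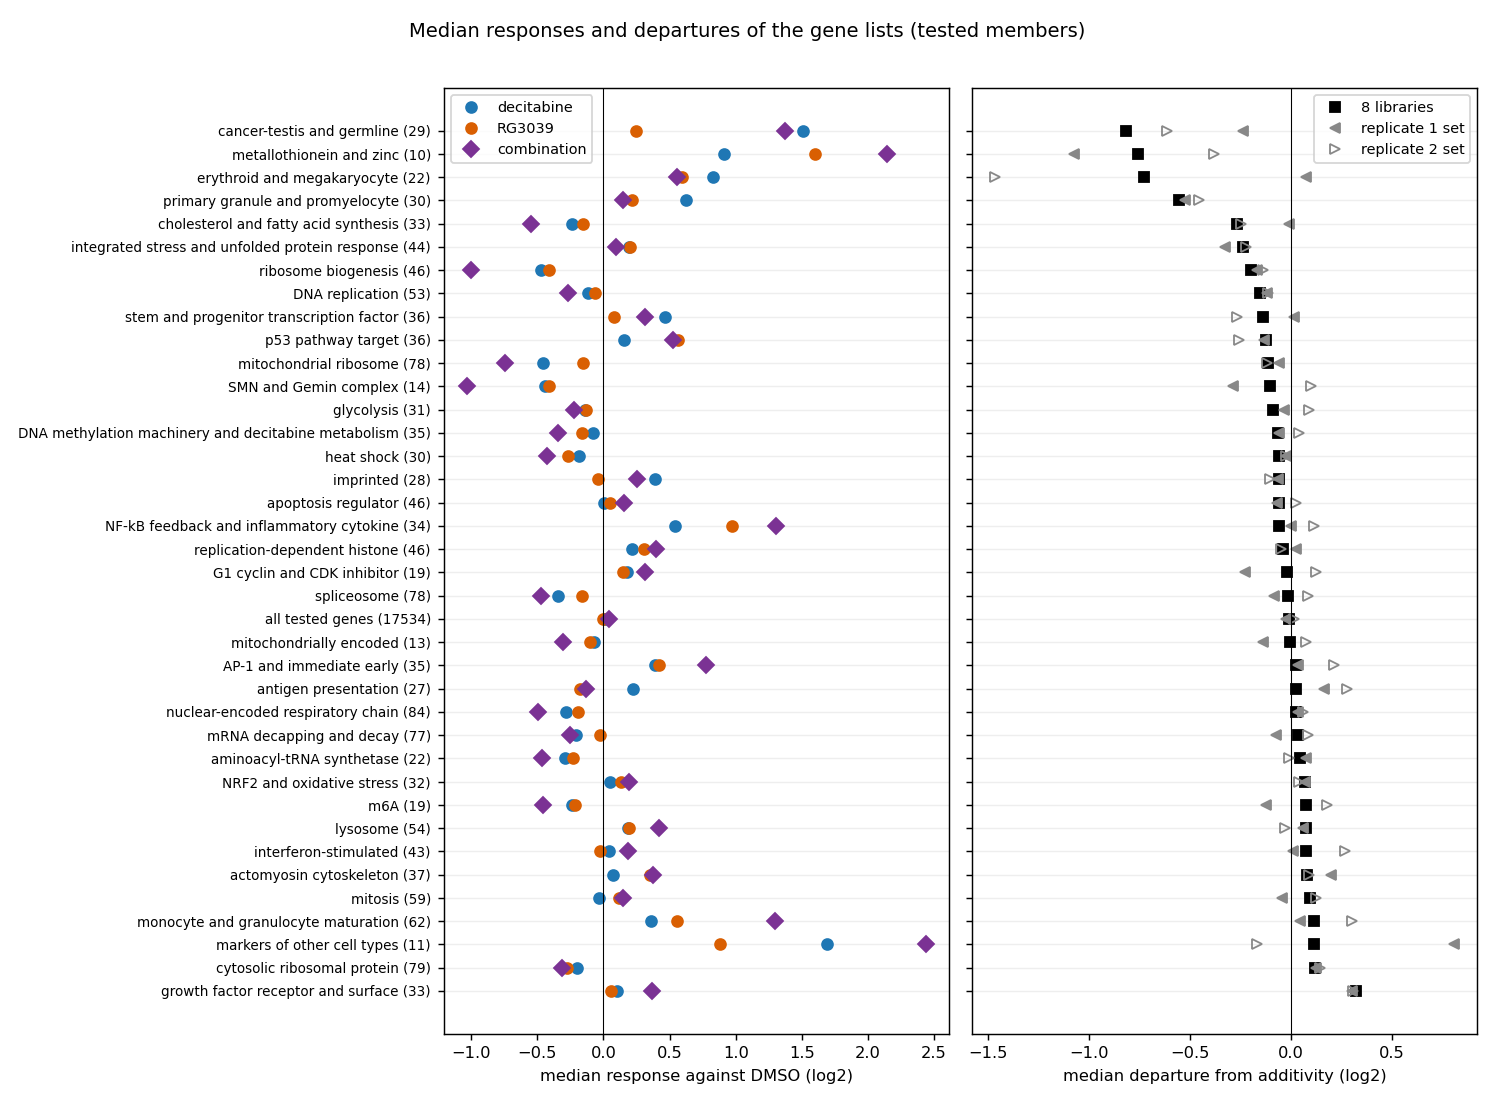
Median log2 response against DMSO (left, for the 3 treatments) and median departure from additivity (right, squares for all 8 libraries, triangles for the replicate sets) of each gene list, with the number of tested members in brackets. The primary granule and promyelocyte list (-0.55) and the growth factor receptor and surface list (0.32) have both triangles close to the square, and the erythroid and megakaryocyte list (-0.73) has them on either side of 0.

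A list of 18 genes used as markers of lymphoid, stromal, epithelial and endothelial cells was also checked. The epithelial markers KRT8 (236 to 745) and KRT18 (67.9 to 919) were present in all 8 libraries, so the summed level of the list is no measure of purity. MS4A1, COL3A1 and CDH5 were at 0 in all 8 libraries, and 11 genes were tested, of which 6 rose with the combination (beside 11.4% of all genes) and 1, NKG7, fell (beside 12.7%), with a median departure of 0.11 (0.81 and -0.17 in the sets). The summed level of the 18 genes was 1110 to 1524 with DMSO, 1830 to 2224 with decitabine, 2568 to 2630 with RG3039 and 5390 to 5470 with the combination, and PECAM1, an adhesion molecule that myeloid cells also carry, was the largest part of it in both combination libraries (3085 and 3460). The T-cell genes CD3D and CD3E were highest in the combination, at 61.3 and 104 and at 41.6 and 94.1. NKG7, a granule gene of cytotoxic lymphocytes, went the other way, from 99.9 and 134 in DMSO to 31.6 and 45.6 under both drugs. The summed level of the 8 promyelocyte markers was 167780 to 205480 with DMSO, 167790 to 209920 with decitabine, 114090 to 130990 with RG3039 and 96955 to 109580 with the combination. MPO made up most of that sum, and MYB, a transcription factor of progenitors, was higher in both combination libraries (12504 and 15108) than in both DMSO libraries (8995 and 10147). The part of these shifts in the departures of the granule, surface and maturation genes was not tested, and in bulk RNA fewer cells of a type and less RNA per cell cannot be told apart.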

How the data were processed

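RNA from 8 HL-60 libraries was prepared with a 3′ tag kit that reads 1 tag per transcript end and sequenced single-end, per the labels. The deposited values are a normalised read signal per gene. Salmon 1.2.1, STAR, featureCounts, DESeq2, limma and the build hg38 are named in the submitters' processing notes with no role, so the tool behind the values is unknown. The strand setting used in counting was not given in the sources used here. Low values of genes with 1 annotated transcript were multiples of 1 step in each library (97.5% to 98.1% within a tolerance of 0.02), which gave the estimated depths, but only 74.4% to 80.8% over all genes, so no count test was run.

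Values were taken as log2(value + 1). Group means were fitted per gene to the 17534 genes by the linear models of limma 3.58.1 in R 4.3.3 (eBayes with the mean-variance trend, 4 residual and 5.51 prior degrees of freedom). All tests are two-sided, with Benjamini-Hochberg adjustment over the 17534 genes and calls at an adjusted p under 0.05. Intervals cover 95%. Departures understate low genes because of the pseudocount of 1. The fit was tested on simulated data. Positions are from GENCODE 29 on hg38, in which 58064 of 60240 identifiers were found.

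The 37 gene lists (1574 genes matched, 1433 tested) and the named genes were chosen with earlier results of these data known, and no list was tested. Named genes are the 6 with the smallest p in each direction with a mean of 20 or more, the member of each list with the smallest p, 9 drug target and metabolism genes, and 17 leading responders to the single drugs; other list members printed were chosen after their values were seen. The split into replicate sets was also chosen after seeing the data. The replicate numbers were not treated as pairs, since correlations of same-numbered libraries' deviations ran from -0.077 to 0.161. Genes of X inactivation and of the Y chromosome are not reported.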

Additional observations from a re-analysis of the deposited data

How the results depend on the processing

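No gene was called for a departure under any alternative that kept all 8 libraries: pseudocounts of 0.5 and 10, no filter, a filter at a mean of 50 or at a lowest group mean of 10, libraries scaled to the same total, quantile normalization, eBayes without the trend or robust, a test against a 1.5-fold departure, and the replicate block. Without 1 library the counts were 0 to 1 above the sum and 0 to 1 below it. FRY passed above the sum without DMSO replicate 1, GP1BB above and SMIM11A below without DMSO replicate 2, RGPD2 above and GRAMD4 below without RG3039 replicate 1, and PCNP below without combination replicate 2. The lone library of the group is then assumed to vary like the other groups.

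At an unadjusted p under 0.05 the number of genes above the sum lay between 364 and 839 and below it between 404 and 784 with all libraries, and between 307 and 729 and between 330 and 910 without 1 library. The granule members below the sum at that p numbered 7 with eBayes without the trend and 6 to 15 without 1 library, the stress members 5 to 11 and the metallothionein members 4 to 6. Of 70 named departures, 5 changed sign in some alternative with all libraries and 9 without some library, and 1, GP1BB, passed without a library. Of 102 called responses of named genes, 77 kept the call in every alternative and 0 reversed. Scaling the libraries to the same total moved the median departure of all genes to -0.07.

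The replicate block called 0 genes above and 0 below the sum, and gave 599 and 702 genes at an unadjusted p under 0.05, with 17 granule, 13 stress and 5 metallothionein members below the sum. The labels do not say what a replicate number shares, so these are not treated as pairs. The block lost 0 of the 102 called responses.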

Other observations

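The following genes were chosen after their values were seen. TRAC and TRDC rose with each drug alone and with both, and their estimates lay below the sum, though neither departure passed. TRAC, the alpha chain constant segment, was at 45.4 and 28.7 in DMSO, 442 and 422 under decitabine, 523 and 767 under RG3039 and 1963 and 2182 under both drugs, with a departure of -1.84 ± 0.39 (SE, 95% interval -2.71 to -0.96). TRDC, the delta chain constant segment, was at 9.08 and 9.06, 191 and 212, 61.8 and 37.4, and 148 and 157 in the same order, with -2.68 ± 0.56 (SE). TRDC was low with DMSO and passed the filter only through the treated groups, so the size of its departure is uncertain. The combination was the highest group for TRAC and not for TRDC. The gamma chain constant segments TRGC1 and TRGC2, nearly identical copies whose reads could be shared, passed for no response, and their departures were -0.14 and -0.56 with intervals that include 0.

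LINC00877 and SEMA3A were low in 6 libraries and high in the combination alone. LINC00877, a long non-coding RNA, was at 5.08 and 6.61 in DMSO, 3.2 and 17 under decitabine, 11.4 and 12 under RG3039 and 467 and 567 under both drugs, and its departure was 4.99 ± 1.01 (SE, 95% interval 2.72 to 7.27). SEMA3A, a secreted guidance factor, was between 0.805 and 9.13 in the other 6 libraries and at 634 and 142 under both drugs, so that its combination libraries differed from each other more than 4-fold. Neither passed for a departure (adjusted p 0.557 and 0.622, limma with Benjamini-Hochberg), while both passed for the combination against DMSO and against each single drug. Both genes passed the filter on low values only through the combination libraries, so a positive departure was bound to appear, and its size rests on values near the pseudocount.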
